A study of Mus musculus with 24 samples.

Results

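Fgl1, Fgl2, Fga, Fgb and Fgg encode the fibrinogen chains and 2 secreted proteins built on the same carboxy-terminal domain, and they were followed through the liver and bone marrow of mice lacking Erfe after blood loss. Members were chosen by gene symbol in the scanner files, which gave 5 genes measured by 7 probes, out of 56605 probes with 37074 gene names on the array. Fgl1 and Fga have 2 probes each and the other 3 genes have 1. Male Erfe-/- mice gave liver and marrow RNA for 24 single-colour Agilent arrays, with 4 mice at each of 0, 24 and 48 h after phlebotomy by puncture behind the eye. Every mouse lacked Erfe, the gene for erythroferrone, including those at 0 h, whose treatment label reads control. Wild-type mice were not analysed here, and the age and strain are not given in the sources used here. The comparisons ask which transcripts still respond to bleeding when erythroferrone, the erythroblast hormone that lowers hepcidin, is missing.

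Fibrinogen is a plasma protein of paired alpha, beta and gamma chains, made by hepatocytes from Fga, Fgb and Fgg, and thrombin cleaves it into the fibrin of a clot. The 3 genes lie side by side and are acute-phase genes, raised by interleukin-6 through STAT3. Fgl1 (hepassocin) is secreted by hepatocytes, binds the T cell receptor LAG-3 and has been studied as a suppressor of hepcidin. Fgl2 is a protein of macrophages, endothelium and T cells with prothrombinase activity in its membrane form, and its soluble form binds Fc gamma receptor IIB.

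The 60-base probes decide what is measured, so those that behave differently are shown, in lower case from the 5' end. Both Fgl1 probes lie on the minus strand of mm9 chromosome 8, 6599 bases apart. A_55_P1984830, at 42276846 to 42276905, is assigned by the files to the RefSeq transcript of Fgl1. A_51_P275905, at 42283445 to 42283504, is assigned to a different Ensembl transcript and a full-length mouse cDNA, not to the RefSeq transcript. The first 30 bases of each are given, and the rest of A_51_P275905 holds a run of alternating g and t. Whether that probe also binds other transcripts was not tested.
Fgl1 A_55_P1984830: gccaagtgattttattccaaatattattta
Fgl1 A_51_P275905: ccctcaaactataaattatcctagttttaa
Both Fga probes lie on the plus strand of chromosome 3, A_51_P193813 at 82835678 to 82835737 and A_55_P2123381 at 82837260 to 82837319. They share 2 RefSeq accessions, while of the 2 Ensembl transcripts of A_51_P193813 only 1 is listed for A_55_P2123381. The Fgb probe A_51_P428483, at 82846334 to 82846393 on the minus strand, is shown because the marrow results turn on it.
Fga A_51_P193813: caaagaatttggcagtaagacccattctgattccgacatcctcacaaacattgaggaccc
Fga A_55_P2123381: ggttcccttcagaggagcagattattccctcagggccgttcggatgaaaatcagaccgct
Fgb A_51_P428483: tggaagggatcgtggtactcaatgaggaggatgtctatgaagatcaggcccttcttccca
The Fgg probe A_51_P362176 lies at 82818825 to 82818884 on chromosome 3 and the Fgl2 probe A_52_P266132 at 20883482 to 20883541 on chromosome 5, both on the plus strand. Whether a probe falls in an exon or a UTR was not analysed here.

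Values are log2 signal minus the 75th percentile of the array, a level within a probe, and probes are not compared in level with each other. That percentile was 361.2 to 473.1 intensity units on liver arrays and 715.0 to 954.7 on marrow arrays, and 0 spots were saturated. A probe counts as well above background where the scanner software marked it so. The lowest such signal was -5.26 to -3.96 on liver arrays and -5.83 to -4.83 on marrow arrays, and a value below it has no order. Both Erfe probes were at background on 12 of 12 livers, and in marrow 1 of them was above it on 1 of 12 arrays. All 24 hepatocyte markers on the array were above background on every liver, and all 10 erythroid and 10 neutrophil markers on the 11 marrows used. Marrow 24 h replicate 2 stood apart: on it the 24 hepatocyte markers lay at 7.10 to 37.3% of their mean liver level, with a median of 9.93%. On the other 11 marrow arrays that median was 0.00408 to 0.0223%. Marrow results are therefore given on 11 arrays, and then with that array. In such bulk tissue, fewer cells of a type and less RNA per cell cannot be told apart.

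At 0 h the fibrinogen chains and the RefSeq probe of Fgl1 were transcripts of the liver, and Fgl2 one of the marrow. limma, with Benjamini-Hochberg adjustment over 34548 probes, called 7 of 7 member probes between the tissues, against a background of 79.2% of all probes, so a call says little here and the sizes matter. For Fgb the liver level was 9.78 and the marrow level -3.77, a log2 difference of 13.55 (SE 0.50, adjusted p 2.31e-15). The measured means differed by 13.39 for Fgl1 A_55_P1984830 and 14.76 for Fgg, but 3 of 4 marrow spots were at background for each, so these sizes are not exact. Both Fga probes were above background on 0 of 4 marrows, so liver was at least 3893-fold higher by A_51_P193813 and at least 994-fold higher by A_55_P2123381. Fgl1 A_51_P275905 was only 2.19 higher in liver (SE 0.18), a 4.57-fold difference, and above background on every array of both tissues. Fgl2 ran the other way, 2.66 lower in liver (SE 0.22), a 6.30-fold difference. The 4 livers and 4 marrows did not overlap for any of the 7 probes, but the share of all probes without overlap was not counted.

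In liver, Fgl1 was the member with the largest difference after bleeding, and its spread among the unbled mice was as large as the change. By A_55_P1984830 the livers at 0 h read 8.45, 5.60, 7.35 and 5.78 for replicates 1 to 4. At 24 h they read 8.30, 8.09, 8.39 and 7.86, and at 48 h 6.66, 8.25, 7.87 and 8.14. Replicate 1 at 0 h was above all bled livers, replicates 2 and 4 at 0 h were below all of them, and the groups overlapped. The unbled mean was 6.79 ± 1.35, the 24 h mean 8.16 ± 0.24 and the 48 h mean 7.73 ± 0.73 (SD, n = 4 each). The change was 1.37 at 24 h (95% interval 0.13 to 2.61) and 0.93 at 48 h (-0.31 to 2.17). limma gave adjusted p-values of 0.447 and 0.895 over 28796 probes, and the exact permutation p was 0.143 and 0.257. Within each of the 3 slides the 24 h difference was 1.28, 0.74 and 2.35, while at 48 h it was -0.36, 0.71 and 2.36. A_51_P275905 did not share this spread: its 12 livers lay between 1.91 and 2.88, and its changes were 0.16 (SE 0.19) and 0.02.

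None of the 7 member probes was called in liver at 24 h, at 48 h or between 48 and 24 h, and the background was 0% in each, 0 of 28796 probes. At an unadjusted limma p under 0.05 there were 2, 1 and 1 member probes and 3014, 1713 and 2216 probes in all. The smallest adjusted p of any probe was 0.291, 0.314 and 0.276. The plot of liver levels by array shows the spread of Fgl1 beside that of the chains.

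**Figure D1:**
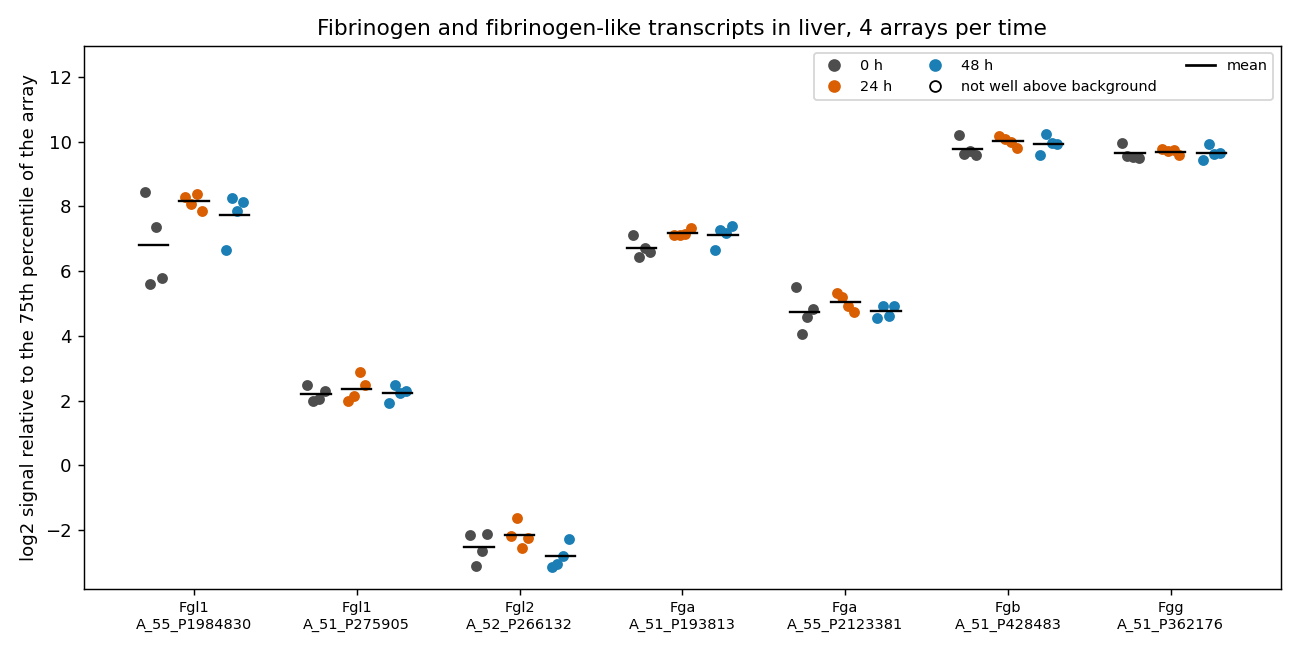
Levels of the 7 member probes on 12 liver arrays, as log2 level scaled to each array's 75th percentile, by time after phlebotomy (colour), 4 arrays each, with the mean as a line. Fgl1 A_55_P1984830 ranged from 5.60 to 8.45 at 0 h and from 7.86 to 8.39 at 24 h, whereas Fgg stayed between 9.44 and 9.97 on all livers.

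Among the fibrinogen chains in liver, Fga, the alpha chain, had the largest difference by A_51_P193813. Its livers read 7.12, 6.43, 6.72 and 6.60 at 0 h, 7.11, 7.12, 7.14 and 7.32 at 24 h, and 6.65, 7.26, 7.18 and 7.39 at 48 h. The 24 h values were tight and 3 of the 4 unbled livers lay below them, but replicate 1 at 0 h lay among them. The change was 0.46 (SE 0.17, unadjusted p 0.0203, adjusted p 0.411) at 24 h and 0.40 (SE 0.17, adjusted p 0.819) at 48 h. By A_55_P2123381, the other Fga probe, the differences were 0.30 (SE 0.25) and 0.01, and its 0 h livers ran from 4.07 to 5.51. Fgb, the beta chain, read 10.20, 9.62, 9.71 and 9.58 at 0 h, 10.17, 10.07, 9.99 and 9.80 at 24 h, and 9.58, 10.23, 9.96 and 9.94 at 48 h. Its changes were 0.23 (95% interval -0.12 to 0.59) and 0.15 (-0.20 to 0.51), with overlapping groups. For Fgg, the gamma chain, the differences were 0.06 at 24 h (-0.21 to 0.34) and 0.03 at 48 h (-0.25 to 0.30), and its groups overlapped too.

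Fgl2 in liver was low but above background on 12 of 12 arrays. It read -2.16, -3.10, -2.66 and -2.12 at 0 h, -2.18, -1.62, -2.56 and -2.25 at 24 h, and -3.14, -3.05, -2.78 and -2.27 at 48 h. The 3 times overlapped. Its change was 0.36 (SE 0.27, adjusted p 0.658) at 24 h and -0.30 (SE 0.27, adjusted p 0.938) at 48 h, and between 48 and 24 h it was -0.66 (unadjusted p 0.0306, adjusted p 0.602). The summed Kupffer cell markers, the liver's macrophages, ran from 5.63 to 6.46 in log2 at 0 h, from 5.87 to 6.24 at 24 h and from 5.67 to 6.36 at 48 h, with 6 of 6 above background at each time. Their part in the Fgl2 values was not tested.

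Set against each other array by array, the difference for Fgl1 A_55_P1984830 in liver at 24 h exceeded that for Fgg by 1.31 and that for Fgb by 1.13. It exceeded that for Fga A_51_P193813 by 0.91 and that for Fgl2 by 1.01. The exact permutation p-values of these 4 differences were 0.0857, 0.114, 0.257 and 0.229. Over the 16 liver pairs, made of both Fgl1 probes, 4 other genes and 2 times, the smallest exact p was 0.0286, the least that 4 against 4 can give, and 0 of 16 passed after Benjamini-Hochberg adjustment over the pairs. That smallest value belonged to Fgl1 A_51_P275905 against Fga at 48 h, a difference of -0.38.

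The livers that were high for Fgl1 were also high for the fibrinogen chains. Over the 12 livers, Fgl1 A_55_P1984830 and Fgb had a Pearson r of 0.870 (Spearman rho 0.881), and Fgl1 and Fgg had 0.722 (rho 0.916). Without the 2 livers farthest from the median the r values were 0.892 and 0.833. Fgb and Fgg had the closest relation of any pair of genes, r 0.933 (rho 0.965). Fgl2 stood apart from Fgb and Fgg, at 0.316 and 0.213, and its highest r with any member, 0.701, was with Fga A_55_P2123381. The 2 Fgl1 probes correlated at 0.476 and the 2 Fga probes at 0.590. These are descriptions over 12 arrays that include the times themselves and share each array's scaling.

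Across 13537 genes measured in liver, the 3 most like Fgl1 A_55_P1984830 were Lrg1 (r 0.973), Cyb561 (0.972) and Hp (0.971). Lrg1 encodes an acute-phase glycoprotein and Hp encodes haptoglobin, which binds free haemoglobin. Lrg1 read 8.13, 6.63, 7.43 and 6.65 at 0 h, the same order of livers as for Fgl1. Hp read 9.76, 8.71, 9.23 and 8.68. Fgl1 A_51_P275905 was most like Il15ra, Tmprss3 and Serpinb8 (r 0.985 to 0.981), and none of these genes was among those of the other Fgl1 probe. For Fgb the most alike were Shank2, Hpx (hemopexin) and Ldha, with r 0.971 to 0.951. For Fgg they were Kng1 (kininogen), Ambp and Rps3, with r 0.966 to 0.946. For Fga A_51_P193813 they were the complement genes C8a and Hc, and Slc41a2, with r 0.951 to 0.934. Fgl2 was most like Kifap3, Dock10 and Ift80, with r 0.918 to 0.901.

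**Figure D2:**
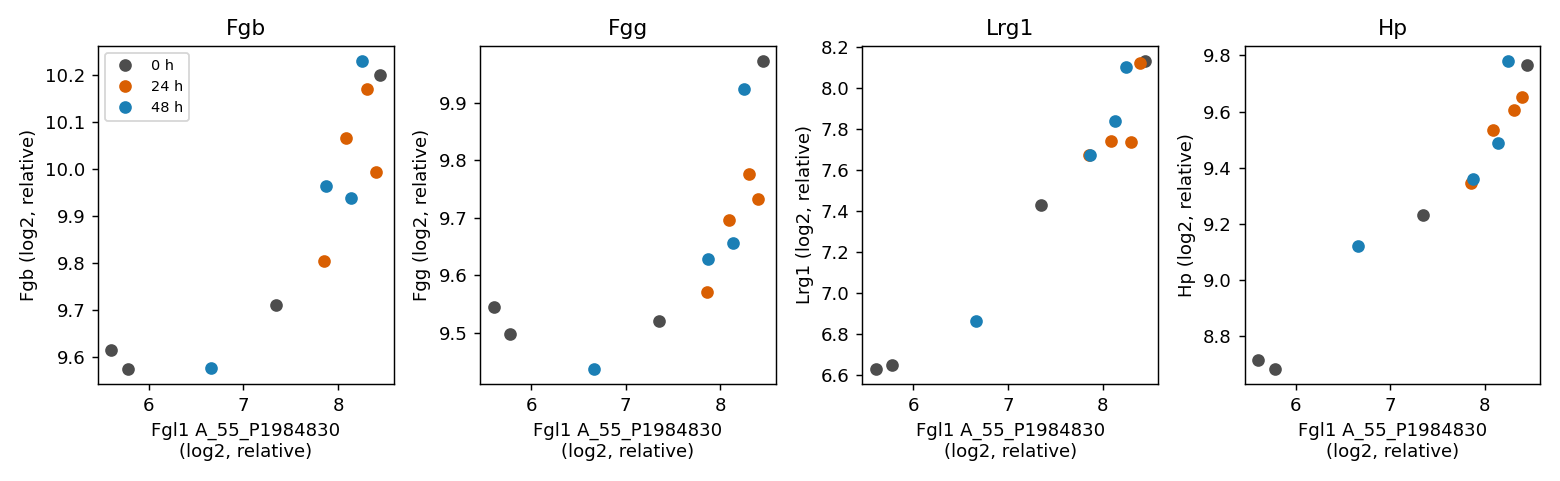
Each point is 1 of 12 livers, with Fgl1 A_55_P1984830 on the horizontal axis and Fgb, Fgg, Lrg1 or Hp on the vertical axis, all as log2 level scaled to each array's 75th percentile, coloured by time. Points of all 3 times fall along the same rise, with r 0.870 for Fgb, 0.722 for Fgg, 0.973 for Lrg1 and 0.971 for Hp.

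The other acute-phase genes of liver were examined as a list of 25, all measured. None was called, and 8 had an unadjusted p under 0.05 at 24 h and 3 at 48 h. Their median change was 0.45 at 24 h and 0.19 at 48 h, where the median over all probes was -0.01 at both. The 3 with the smallest p at 24 h were Serpina3n, a protease inhibitor (0.87, SE 0.26, adjusted p 0.352), Itih3 (0.77, SE 0.26, adjusted p 0.377) and Saa2, serum amyloid A (2.27, SE 0.77, adjusted p 0.379). Saa1, which also had an unadjusted p under 0.05, read 9.13, 5.26, 6.78 and 5.39 at 0 h and 9.53, 8.99, 9.49 and 8.05 at 24 h. Saa1 was chosen for mention after its values were seen, because replicate 1 at 0 h lay among the 24 h livers as it did for Fga. At 48 h the 3 with the smallest p were Lbp (0.68), Steap4 (0.49) and Mt1 (1.80), with adjusted p-values of 0.763 to 0.827.

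Coagulation and fibrinolysis genes in liver had 26 of 27 measured, 0 called, and 4 and 1 with an unadjusted p under 0.05 at 24 and 48 h. Vwf, von Willebrand factor, differed by 0.40 at 24 h (SE 0.13, adjusted p 0.374). Of 9 receptors and binding partners, 7 were measured and 0 called, and Itgb3, the beta subunit of a platelet fibrinogen receptor, differed by 0.72 (SE 0.21, adjusted p 0.350). Among 14 regulators of the fibrinogen genes 0 were called, and Il6st, the signalling chain of the interleukin-6 receptor, differed by 0.28 (SE 0.11, adjusted p 0.415). Of 18 relatives, genes with a fibrinogen-like domain and the angiopoietin-like gene Angptl8, which lacks it, 11 were measured and 0 called. The hepcidin and BMP list had 9 of 9 measured and 0 called. Its smallest unadjusted p at 48 h was that of Hamp, hepcidin itself, with a change of -1.76 (SE 0.37, adjusted p 0.473), and Smad7, an inhibitor induced by BMP signals, differed by -0.72.

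In marrow, Fgl1 by its RefSeq probe was near or below background before bleeding and above it on every array after bleeding. A_55_P1984830 read -4.69, -7.05, -7.11 and -7.51 at 0 h, of which only replicate 1 was well above background. At 24 h replicates 1, 3 and 4 read -3.21, -3.78 and -3.89, and at 48 h the 4 arrays read -3.95, -3.36, -4.21 and -4.10. All 7 bled marrows were above background and above all 4 unbled ones. How many of all probes separate in this way was not counted. The probe entered the test only through the bled groups, so a difference in this direction was built into the filter, and the p-values are given as a description. The change was 2.69 at 48 h (SE 0.52, 95% interval 1.53 to 3.84), with a limma adjusted p of 0.0350 over the 32387 probes kept and 0.127 over all 56605 probes with no filter. At 24 h it was 2.97 (SE 0.56, 95% interval 1.72 to 4.21), and the adjusted p was 0.0570, or 0.190 with no filter. The background was 1.67% of probes called at 48 h, 542 of 32387, and 0.494% at 24 h, 160 of 32387. The exact permutation p was 0.0286 at 48 h and 0.0571 at 24 h.

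The size of that difference depends on how dim spots are treated. With dim values raised to the lowest signal well above background of their array, the change was 1.13 at 48 h and 1.41 at 24 h, and with normexp background correction 0.77 and 0.87. The call at 48 h was lost in 14 of 23 alternatives (adjusted p 7.90e-04 to 0.436 over all 23), among them the slide as a block (adjusted p 0.0767), no filter on dim probes and 9 of 11 fits without 1 array. The call at 24 h was gained in 7 of 23. The direction was the same in all of them. Within slides the difference was 2.66 and 3.68 at 24 h on the 2 slides that hold both times, and 1.92, 3.32 and 3.41 at 48 h.

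Fgl1 A_51_P275905 was not called in marrow. It read 0.35, -0.18, -0.18 and 0.08 at 0 h, -0.18, -0.05 and 0.10 at 24 h, and 0.28, 0.22, 0.01 and -0.07 at 48 h, all above background. Its changes were -0.06 (95% interval -0.38 to 0.26) and 0.09 (-0.21 to 0.39), so both intervals exclude the change measured by the other probe. The higher Fgl1 values after bleeding were measured by A_55_P1984830 alone.

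Fgl2 was above background on every marrow array and was not called. Its marrows read 0.35, -0.0045, 0.17 and 0.07 at 0 h, 0.09, 0.42 and 0.06 at 24 h, and -0.12, -0.36, 0.01 and -0.02 at 48 h. The change was 0.05 (SE 0.13, adjusted p 0.946) at 24 h and -0.27 (SE 0.12, unadjusted p 0.0475, adjusted p 0.282) at 48 h. Between 48 and 24 h it was -0.32 (unadjusted limma p 0.0329, adjusted p 0.782), with all 4 later arrays below the 3 earlier ones. In that comparison limma called 0.00309% of probes, 1 of 32387, and 2034 had an unadjusted p under 0.05. The share of all probes whose arrays separate in this way was not counted. The 12 monocyte and macrophage markers summed to 9.20 to 9.57 at 0 h and 9.07 to 9.46 at 48 h in log2, and their part in the Fgl2 values was not tested.

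**Figure D3:**
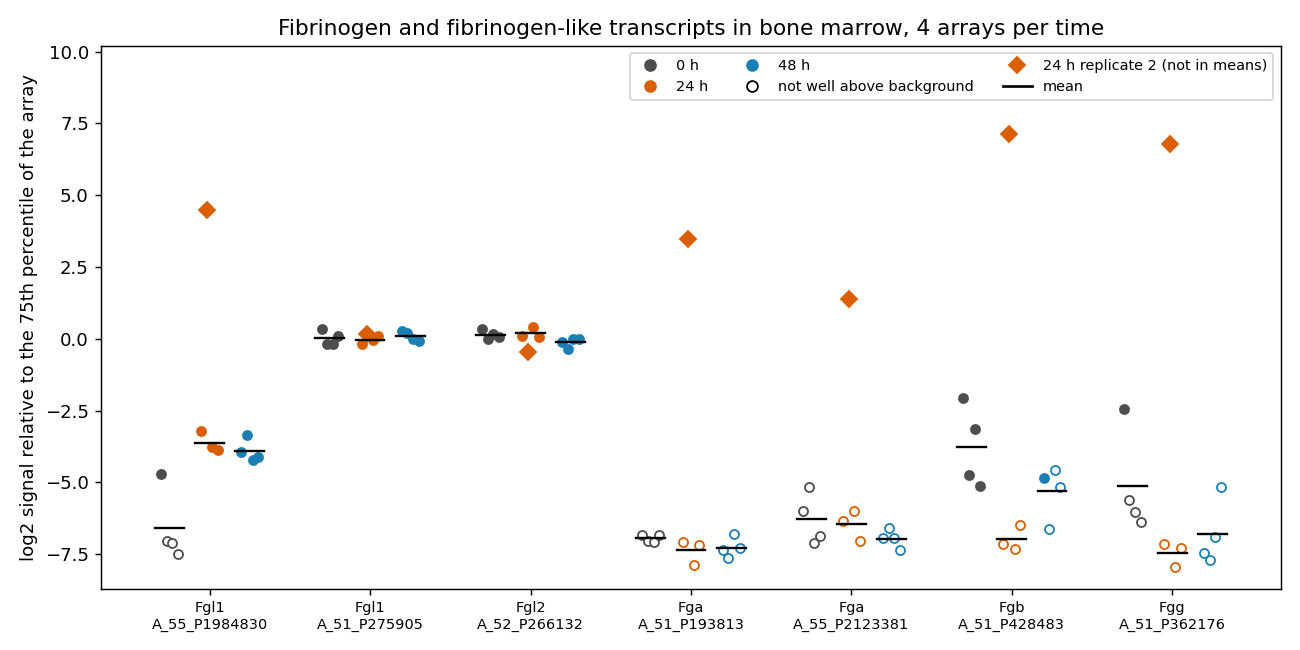
Levels of the 7 member probes on 12 marrow arrays, as log2 level scaled to each array's 75th percentile, by time (colour), with open symbols where the spot was not well above background and diamonds for 24 h replicate 2, which the mean lines leave out. Fgl1 A_55_P1984830 averaged -6.59 at 0 h, with 1 of 4 spots above background, and -3.90 at 48 h, while Fgb went from -3.77 to -6.99 at 24 h.

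No fibrinogen chain was called in marrow at either time. Fgb read -2.06, -4.74, -3.15 and -5.13 at 0 h, above background on 4 of 4 arrays. At 24 h it read -7.15, -7.33 and -6.48, above background on 0 of 3, and at 48 h -4.83, -6.64, -4.58 and -5.17, above background on 1 of 4. The mean at 24 h was at least 3.01-fold lower than at 0 h. The measured values did not overlap, but those at 24 h were below background and have no order. The lowest 0 h value, -5.13, lay within the range of the lowest signal above background on marrow arrays. How many of all probes lack overlap was not counted. The fitted change at 24 h, -3.22 (SE 0.71), had a limma adjusted p of 0.0951 and was not called. At 48 h the change was -1.54 (SE 0.66, adjusted p 0.264). Fgg was above background on 1 of 11 marrows, replicate 1 at 0 h, at -2.46, where the other 3 unbled marrows read -5.62 to -6.37. Fga was above background on 0 of 11 by either probe. Fgg and both Fga probes were not tested in marrow for this reason, so 4 of 7 member probes were tested and 1 was called, at 48 h. Fgb entered the test only through the 0 h group, so a lower value after bleeding was built into the filter for it.

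None of the 8 marrow pairs of an Fgl1 probe with Fgb or Fgl2 passed after Benjamini-Hochberg adjustment of exact permutation p-values over the pairs. The pairs with A_55_P1984830 rest on spots at background, 3 of 4 at 0 h for Fgl1 and 3 of 3 at 24 h for Fgb, so no size is given for them.

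Hepatocyte transcripts on the marrow arrays were set beside these values. On replicate 1 at 0 h, 20 of 24 hepatocyte markers were above background and their median was 0.0223% of the liver mean. The markers there ranged from 0.00946 to 0.972%, and Fgl1 A_55_P1984830 stood at 0.0172%, Fgb at 0.0246% and Fgg at 0.0223%. Fga, not above background, stood at 0.00671% by A_51_P193813 and 0.0520% by A_55_P2123381. Fgl1 A_51_P275905 stood at 26.0% and Fgl2 at 680%. On the other 3 unbled marrows 10 to 13 markers were above background, with medians of 0.00626 to 0.00923%. On the 7 bled marrows 8 to 12 markers were above background, with medians of 0.00408 to 0.0117%, and Alb, the albumin gene, was above background on 0 of them. Fgl1 A_55_P1984830 stood at 0.0241 to 0.0482% of its liver mean on these 7 arrays, and Fgb at 6.39e-04 to 0.00431%. Some acute-phase genes of liver were also higher on the bled marrows and others lower, and those named were chosen after their values were seen. The median change of the 20 measured acute-phase genes in marrow was 0.16 at 24 h and -0.03 at 48 h. Hpx averaged -4.85 at 0 h, -7.02 at 24 h and -6.18 at 48 h. It was above background on 2 of 4, 0 of 3 and 0 of 4 arrays. Saa2 averaged -3.82, -4.24 and -3.96. Itih3 averaged -5.55 at 0 h, -4.35 at 24 h and -3.83 at 48 h, above background on 1 of 4, 3 of 3 and 4 of 4 arrays. Serpina3n averaged -4.08, -2.17 and -2.60, above background on 3 of 4, 3 of 3 and 4 of 4. Neither was called (limma adjusted p 0.392 and 0.0894 for Itih3, 0.0784 and 0.0780 for Serpina3n). Both were kept in marrow only through the bled groups, so the filter favoured a rise and these p-values are given as a description. The part of liver RNA in the Fgl1 values was not tested. Without marrow 0 h replicate 1, the only unbled array with Fgl1 above background, the Fgl1 differences were 3.60 and 3.32, against a baseline of 3 spots at background. Beside the Fgb values, the summed hepatocyte markers were 1.82 to 2.89 in log2 at 0 h and 1.49 to 1.53 at 24 h. At 48 h they were 1.54 to 1.85. Of these markers, 10 to 20 were above background at 0 h and 8 to 11 at 24 h, so the counts overlapped. For replicates 1 to 4 at 0 h the counts were 20, 13, 10 and 12, and Fgb read -2.06, -4.74, -3.15 and -5.13. For replicates 1, 3 and 4 at 24 h they were 11, 8 and 9, and Fgb read -7.15, -7.33 and -6.48. The part of those markers in the Fgb result was not tested. Without marrow 0 h replicate 1 the Fgb change at 24 h was -2.65.

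**Figure D4:**
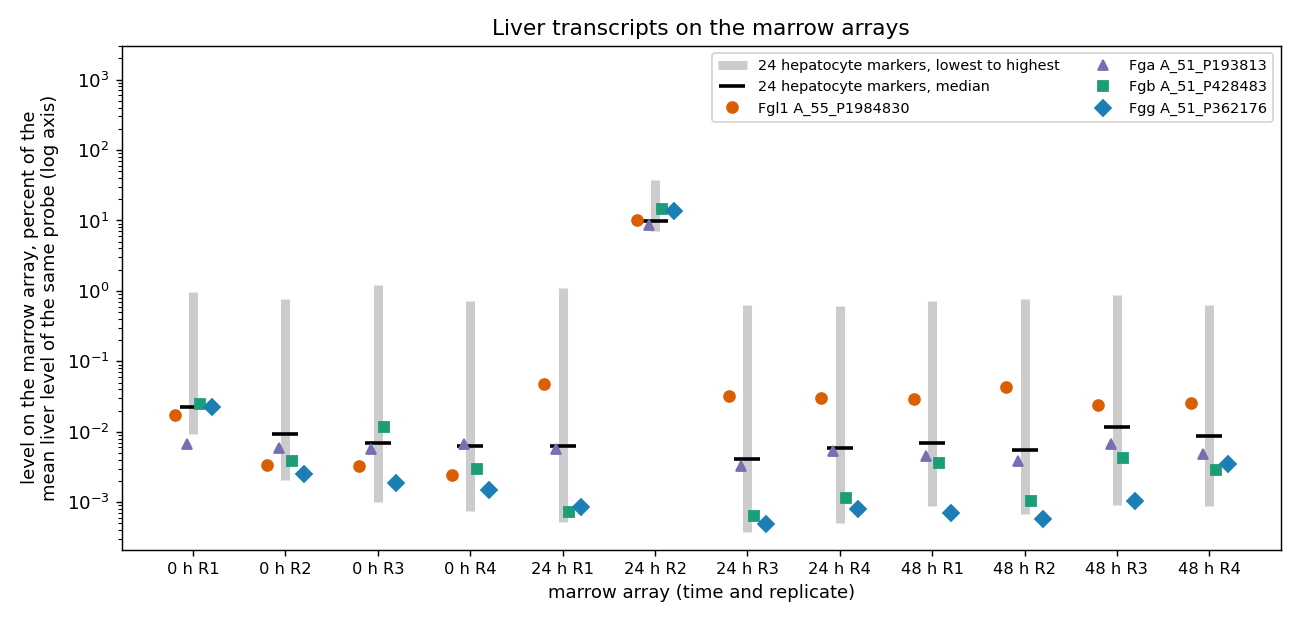
For each of 12 marrow arrays, the level of 4 members as a percent of the mean liver level of the same probe, on a log axis, beside the lowest to highest (grey bar) and the median (black line) of 24 hepatocyte markers. On 24 h replicate 2 the members lie at 8.54 to 14.4% with the markers, and on the other bled marrows Fgl1 lies at 0.0241 to 0.0482% while Fgb and Fgg lie at or below 0.00431%.

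With marrow 24 h replicate 2 included, the picture at 24 h changes for every liver transcript of the family. On that array Fgl1 A_55_P1984830 read 4.49, Fgb 7.12, Fgg 6.78, and Fga 3.49 and 1.40, which is 8.54 to 14.4% of the liver means, while Fgl1 A_51_P275905 read 0.18 and Fgl2 -0.45. The fitted change of Fgl1 A_55_P1984830 at 24 h became 4.99 (adjusted p 0.207) and that of Fgb turned to 0.31 (adjusted p 0.976). At 48 h the Fgl1 change, 2.69, was no longer called (adjusted p 0.436), with the wider spread of the 24 h group in the fit. On 12 arrays limma called 267 probes at 24 h. In the authors' deposited table, that array's cells for Fgb and Fgl1 A_55_P1984830 are empty, as are those of 358 probes on that array alone, against 5 to 153 on each other marrow array.

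The difference between the tissues in the response was tested as an interaction over 23 arrays and 26635 probes measured in both. For Fgl1 A_55_P1984830 the marrow change exceeded the liver change by 1.60 at 24 h (SE 0.84, adjusted p 0.478) and by 1.75 at 48 h (SE 0.81, adjusted p 0.354), so a difference between tissues was not shown. Under normexp these differences were -0.50 and -0.17. For Fgb the marrow change was 3.45 below the liver change at 24 h, a difference of -3.45 (SE 0.73, limma adjusted p 0.0469), against a background of 0.263% of probes at 24 h and 0.706% at 48 h. At 48 h it was -1.69 (SE 0.70, adjusted p 0.294). The 24 h value rests on 3 marrow spots below background, on a probe kept in marrow only through the 0 h group. Of 34 alternatives, 9 kept the call, 24 kept the direction without passing the threshold and 1 changed sign (adjusted p 0.0226 to 0.996 over all 34). With dim values raised to the lowest signal above background the adjusted p was 0.244, and with all 12 marrow arrays the difference was 0.078.

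**Figure D5:**
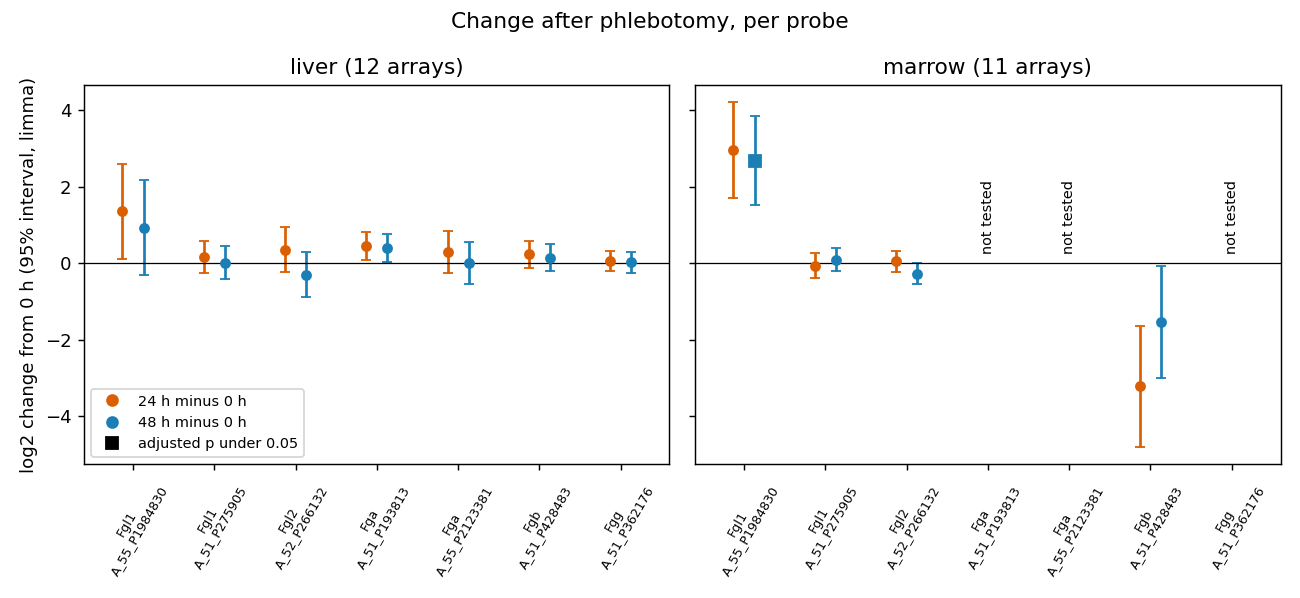
Change from 0 h to 24 and 48 h in each tissue, as fitted by limma on the log2 scale with its 95% interval, for each probe tested. The only square, marking an adjusted p under 0.05, is Fgl1 A_55_P1984830 in marrow at 48 h (2.69), and Fgb in marrow lies below 0 at both times.

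The 3 genes most like Fgl1 A_55_P1984830 over the 11 marrows were Eif3b, a translation initiation factor subunit (r 0.955), Nudcd2 (0.950) and Pa2g4 (0.941), out of 14185 genes. Eif3b read 3.84 to 4.04 at 0 h, 4.22 to 4.32 at 24 h and 4.15 to 4.29 at 48 h. None of the 3 was among the likest genes of Fgl1 in liver. Fgb in marrow was most like Klrd1 (r 0.888), Lin52 and Ndrg2, and Fgl2 was most like Heatr6 (r 0.972), Borcs6 and Tjp3. Fgl1 A_51_P275905 was most like Arhgef15 (r 0.978), Btn1a1 and Eya1. Spots of A_55_P1984830 were above background on 1 of 4 marrows at 0 h. Those of Fgb were above it on 0 of 3 at 24 h and 1 of 4 at 48 h. The correlations of both probes therefore rest in part on values without order.

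Over all probes kept in marrow, 0.494% were called at 24 h and 1.67% at 48 h. In the marrow lists, the acute-phase genes had 20 of 25 measured, and 1 rose past the threshold at both times. That gene was Mt2, a metallothionein induced by zinc and cytokines, which went from 3.97 ± 0.06 (SD, n = 4) to 5.04 ± 0.17 (n = 3) and 5.12 ± 0.09 (n = 4), with limma adjusted p-values of 8.93e-04 and 3.76e-04. The list's median change was 0.16 and -0.03, beside 0.01 over all probes at both times. Of 14 measured relatives, 1 fell at 48 h: Tnn, a tenascin found in bone, by 3.03 (SE 0.59, adjusted p 0.0351), from above background on 4 of 4 arrays to 1 of 4, so the size is not exact. Tnn was kept only through the 0 and 24 h groups, so the filter favoured a fall at 48 h. With no filter on dim probes its limma adjusted p was 0.127. In the hepcidin and BMP list 7 of 9 were measured and 1 rose at 48 h, Tfr2, transferrin receptor 2 of erythroblasts and hepatocytes (0.57, SE 0.12, adjusted p 0.0496). Mt2 was called in all 25 alternatives at each time, Tfr2 in 9 of 25 and Tnn in 9 of 24. Coagulation genes (18 measured), receptors and partners (9) and regulators (12) had 0 called at either time. Among them the smallest unadjusted p-values at 24 h were those of Kng1 (0.28), Itgax (-0.20) and Cebpa (-0.25).

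Promoter windows of the RefSeq genes, from 250 bases before to 50 after the annotated start on build GRCm38.p6, were matched for Fga, Fgb, Fgg and Fgl2, 4 of 5 members. They are printed because Fgb and Fgg varied together over the livers and Fgl2 stood apart from them. Capitals mark every match, on either strand, to CTGGGAA, the core of the interleukin-6 response element, TTCNNNGAA, the STAT motif, or TTGCNNAA, a C/EBP motif. The windows are chr3:83025903-83026202 (plus strand) for Fga, chr3:83049814-83050113 (minus strand) for Fgb, chr3:83007474-83007773 (plus strand) for Fgg and chr5:21372423-21372722 (plus strand) for Fgl2.
Fga: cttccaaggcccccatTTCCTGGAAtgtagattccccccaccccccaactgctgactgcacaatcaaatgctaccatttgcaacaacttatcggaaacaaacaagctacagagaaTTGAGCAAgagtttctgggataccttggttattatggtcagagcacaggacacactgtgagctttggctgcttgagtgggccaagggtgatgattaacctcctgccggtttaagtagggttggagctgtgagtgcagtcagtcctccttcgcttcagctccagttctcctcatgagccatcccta
Fgb: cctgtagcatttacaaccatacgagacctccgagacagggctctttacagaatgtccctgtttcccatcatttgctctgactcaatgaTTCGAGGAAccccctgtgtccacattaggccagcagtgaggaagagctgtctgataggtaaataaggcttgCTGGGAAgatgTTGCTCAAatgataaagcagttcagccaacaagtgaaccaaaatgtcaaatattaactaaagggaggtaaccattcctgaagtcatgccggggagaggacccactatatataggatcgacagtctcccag
Fgg: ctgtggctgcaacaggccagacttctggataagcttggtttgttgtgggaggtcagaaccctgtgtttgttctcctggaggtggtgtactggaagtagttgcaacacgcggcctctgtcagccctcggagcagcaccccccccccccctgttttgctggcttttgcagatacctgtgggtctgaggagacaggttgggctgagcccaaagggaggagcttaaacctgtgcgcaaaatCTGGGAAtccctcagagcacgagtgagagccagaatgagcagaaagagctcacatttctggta
Fgl2: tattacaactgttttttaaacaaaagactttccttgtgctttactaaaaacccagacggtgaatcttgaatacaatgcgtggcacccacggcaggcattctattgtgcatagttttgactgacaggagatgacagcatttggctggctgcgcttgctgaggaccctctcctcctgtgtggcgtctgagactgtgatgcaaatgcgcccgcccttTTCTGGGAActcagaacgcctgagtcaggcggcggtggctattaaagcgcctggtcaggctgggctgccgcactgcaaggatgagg
CTGGGAA occurs at -91 in Fgb, -13 in Fgg and -34 in Fgl2, counted from the annotated start, and in 11.1% of 32851 promoter windows of this length. TTCNNNGAA occurs at -234 in Fga, -162 in Fgb and -36 in Fgl2, and in 8.30% of all windows. In Fgl2 the 2 matches overlap, since the STAT match holds CTGGGAA. TTGCNNAA occurs at -135 in Fga and -80 in Fgb, and in 10.8% of all windows. The palindromic HNF1 motif was in 0 of the 4 windows and in 3 of 32851. Each match is a match of letters in this window, and Fgl2 holds matches too.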

How the data were processed

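Liver and marrow RNA was measured on 24 single-colour Agilent arrays, on 3 slides of 8 that mix tissues and times. Per the file headers, the deposited intensity values were made with Agilent Feature Extraction 10.10.1.1, which subtracts background. The authors' deposited log2 table, for which limma is named in the submitters' processing notes, served as an alternative. Its medians are 7.74 on every liver array and 8.31 on every marrow array, and how the tissues were centred is not given in the sources used here.

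The value analysed was log2 of the processed intensity minus the array's 75th percentile over non-control spots. A tissue kept a probe when every array of 1 or more of its groups had it well above background. Differences were fitted per probe with limma 3.58.1 in R 4.3.3, with Benjamini-Hochberg adjustment over all kept probes and a threshold of 0.05, and single values with two-sided exact permutation tests, whose smallest p is 0.0286 for 4 against 4 and for 4 against 3. Liver was fitted on 12 arrays, marrow on 11, without marrow 24 h replicate 2, and the interaction on 23. The labels do not say whether liver and marrow of one number came from the same mouse, nor that replicates were extracted separately, so p-values measure the spread between these arrays. Array number and signal over background limit precision. The fit was tested on simulated data.

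Genes were named through RefSeq accessions for 32994 probes, symbols for 10224 and synonyms for 520, and by the file's own name for 12867. Named genes were the members, the 3 genes most correlated with each member's brightest kept probe, and from each list those called or else the 3 with the smallest p, of which the text shows some. The members and lists were chosen with earlier results of these data known. The alternatives tried were other scaling, background correction, filters, blocks, weights, left-out arrays, and the authors' values.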

Additional observations from a re-analysis of the deposited data

Results flagged for a closer look

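Of the 42 groups of 4 arrays formed by 7 probes, 2 tissues and 3 times, 8 held an array whose gap to the others exceeded Dixon's 95% critical value for 4 samples. Chance alone gives that in about 1 group of 20. Marrow 24 h replicate 2 accounted for 5 of them: Fgl1 A_55_P1984830 at 4.49 (the other 3 arrays at -3.89 to -3.21), Fga A_51_P193813 at 3.49 (-7.86 to -7.06), Fga A_55_P2123381 at 1.40 (-7.04 to -5.98), Fgb at 7.12 (-7.33 to -6.48) and Fgg at 6.78 (-7.95 to -7.15). Fgl2 and Fgl1 A_51_P275905 were not among them. In marrow at 0 h, replicate 1 stood apart for Fgl1 A_55_P1984830, at -4.69 where the others read -7.51 to -7.05. In liver, Fga A_51_P193813 read 7.32 on 24 h replicate 4 against 7.11 to 7.14, and Fgg read 9.97 on 0 h replicate 1 against 9.50 to 9.54.

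For Fgb at 24 h the marrow change minus the liver change was -3.45 (limma adjusted p 0.0469). The probe was kept in marrow only through the 0 h group, its 3 marrow spots at 24 h were below background, and the adjusted p was above the threshold in most alternatives, such as 0.244 with dim values raised and 0.0762 with the slide as a block.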

How the results depend on the processing

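Over 1308 tests of 53 results under alternative settings, 1197 kept direction and side of the threshold, 69 lost and 7 gained the call, and 35 changed sign. The cause was not tested for these. The marrow counts of called probes were 160 (24 h), 542 (48 h) and 1 (48 against 24 h). They became 190 (48 h) with median scaling; 38 and 93 (24 and 48 h) with no filter on dim probes, where more probes were tested; 99 (48 h) with the slide as a block; 281 and 895 with an intensity trend; 307 and 994 with array weights; 103 and 277 with only the 2 times compared; and 267 (24 h) with all 12 marrow arrays. Between 48 and 24 h they were 0 under normexp, no filter, slide, replicate block, trend, weights and 2 times alone. Interaction calls, 70 at 24 h and 188 at 48 h, became 6 and 16 with median scaling, 117 (24 h) with normexp, 16 and 26 with no filter, 25 and 109 with the slide, 130 (24 h) with the trend, 138 and 352 with weights, and 119 (24 h) with all 12 marrow arrays.

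Same-numbered arrays of different times had r -0.25 to 0.12 in liver and -0.22 to 0.14 in marrow. Differently numbered arrays were not set beside them, so these values cannot decide whether the numbers pair the arrays. With the replicate block, marrow calls were 35 at 24 h and 103 at 48 h, Fgl1 A_55_P1984830 at 48 h was 2.69 (adjusted p 0.0658), and Fgl2 at 24 h was -0.0156. Liver and marrow of 1 number had r 0.04 to 0.16, 6 of 11 over 0.1, and with the mouse as a random replicate block interaction calls were 137 and 328.

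Signs turned for Fgl1 A_51_P275905 in liver at 48 h with the slide as a block (-0.0099) and in marrow at 24 h with median scaling (0.0084). With all 12 marrow arrays they turned at 24 h for Fgl2 (-0.11), for Fgb (0.31) and for the Fgb interaction (0.078). Under normexp they turned for the Fgl1 A_55_P1984830 interaction (-0.50 at 24 h, -0.17 at 48 h) and the Fgl2 interaction at 48 h (-0.079).

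Leaving out 1 array gave 0 to 1 called liver probes at 24 h, 0 to 14 at 48 h (14 without liver 48 h replicate 1) and 0 to 1 between 48 and 24 h (1 without liver 24 h replicate 4). In marrow it gave 50 to 210 at 24 h, 143 to 634 at 48 h and 0 between 48 and 24 h, and for the interaction 8 to 167 and 42 to 203. Member values that changed sign ranged, for Fgl1 A_51_P275905, from -0.010 to 0.28 (liver 24 h), -0.066 to 0.13 (liver 48 h), -0.13 to 0.051 (marrow 24 h) and -0.034 to 0.18 (interaction 48 h). For Fgl2 they ranged from -0.065 to 0.12 (marrow 24 h) and -0.098 to 0.23 (interaction 48 h), and in liver at 48 h from -0.060 to 0.14 for Fgg and -0.22 to 0.26 for Fga A_55_P2123381.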
